A study of Mus musculus with 12 samples.

Results

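A set of 9 marker genes of pancreatic duct and epithelium was followed in islet RNA from a mouse knockout of microRNA clusters. These were the keratins Krt7 and Krt19, the claudins Cldn3, Cldn4 and Cldn7, the transcription factor Sox9, the secreted proteins Spp1 and Tff2, and the chloride channel Cftr. They were taken by gene symbol and are 9 of 23339 genes with counts. The 12 libraries came from islets of Langerhans of C57BL/6 mice, 6 labelled as the miR-17-92/106 KO and 6 as its control. The series title gives the knockout as miR-17-92/106b, and gene expression in KO islets is set against that of controls. The sources used here do not give age, the cells in which the clusters were deleted or the alleles of the controls. They do not say whether libraries are separate animals either, and p-values therefore measure the spread between these libraries, which may be technical.

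Pancreatic ducts are a simple epithelium that collects acinar enzymes and adds bicarbonate-rich fluid. Their cells rest on a keratin skeleton, are sealed to each other by claudins at tight junctions, and secrete chloride and bicarbonate with the help of Cftr. Sox9 marks duct cells of the adult pancreas and the progenitors of the embryonic pancreas. Islets are isolated by digesting the pancreas, and duct and acinar cells can be carried along. Claudins and several keratins also belong to other epithelial cells, and Spp1 (osteopontin) is made by macrophages as well.

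Total counts ran from 2642420 to 4966721 in KO libraries and from 2705479 to 5099566 in control libraries. Levels are given as CPM after TMM scaling, and all intervals and detection limits reflect counting error alone. A list of 33 genes of acinar cells, which make the digestive enzymes, held 13.7% and 10.8% of all reads counted in the KO libraries 5 and 6 and 5.56% in control library 1, against 1.35% to 2.34% in the other 4 KO libraries and 1.16% to 2.59% in the other 5 controls. These 3 are called the libraries of high acinar share, and values that they move are given with and without them. The series has no labelled batch, but the numbers in the library titles run up to 703 for KO and from 706 for controls, with 1 control (706) next to the KO numbers and the other 5 from 805 upward.

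The deleted clusters encode microRNAs that fall into a few seed families. A microRNA pairs with messenger RNAs mainly through its seed, bases 2 to 8, and matching sites in the 3′ UTR are the usual place of repression. The sequences of the largest family and the single matching site found among the 9 genes are shown. This site was the only one in the list that matched bases 2 to 8 of the microRNAs searched. Shorter matches and other mature microRNAs of the clusters were not searched. Mature sequences are from RefSeq (GRCm38.p6), with the seed in capitals.
mmu-miR-17-5p: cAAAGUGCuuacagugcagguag
mmu-miR-20a-5p: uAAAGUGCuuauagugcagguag
mmu-miR-93-5p: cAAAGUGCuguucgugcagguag
mmu-miR-106b-5p: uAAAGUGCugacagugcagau
Spp1 site, with the seed match in capitals: caaaagcttctGCACTTTgcttctgttct

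The Spp1 match starts at base 197 of a 3′ UTR of 432 bases (GENCODE M21; Spp1 lies on chromosome 5). None of the other 8 genes held GCACTTT, nor did any of the 9 hold the matches GCACCTT of miR-18a, TTTGCAC of miR-19a and miR-19b or GTGCAAT of miR-25 and miR-92a in the longest annotated 3′ UTR. Among 8933 tested genes with a 3′ UTR, 14.9% held GCACTTT, 9.46% GCACCTT, 13.6% TTTGCAC and 7.85% GTGCAAT. A match is a description of the letters, not evidence of binding.

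The 9 genes differed widely in level. Tff2, the claudins and Krt7 were well counted, while Krt19, Sox9 and Cftr, used as markers of duct cells, had few counts. Per kilobase of the longest coding transcript, the mean level over all 12 libraries was 161 CPM per kb for Tff2, 37.8 for Cldn7, 31.5 for Cldn4, 19.3 for Krt7, 11.2 for Cldn3, 5.81 for Spp1, 1.57 for Krt19, 0.314 for Sox9 and 0.00836 for Cftr. This order held in all 12 libraries for each pair of neighbours except Cldn7 and Cldn4, where Cldn7 was the higher of the pair in 11 of 12. The ranges of Cldn7 and Cldn4, of Cldn3 and Spp1, and of Krt19 and Sox9 overlapped between libraries. Krt7's place rests on the 4094 bases of its longest coding transcript, and a shorter one would raise it. Most counts of the 9 genes came from Tff2, Krt7 and the claudins, while Krt19, Sox9 and Cftr were low. Which cells these counts came from was not tested.

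**Figure D1:**
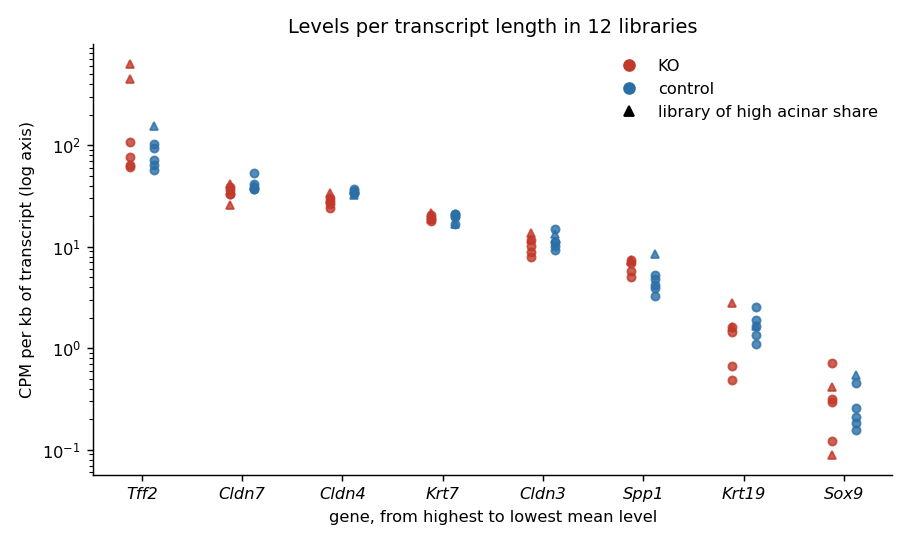
Level of 8 of the 9 genes in each library, in CPM per kb of the longest coding transcript on a log axis, with genes from the highest to the lowest mean. Red symbols are KO and blue symbols control libraries, triangles are the 3 libraries of high acinar share, and Cftr is left out because most of its values are 0. Krt19 and Sox9 lie far below the claudins and Krt7 in both groups.

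Islet RNA held other epithelial genes at high levels in both groups. The keratins Krt8 and Krt18, partners in simple epithelia, averaged 37.6 and 45.6 CPM per kb over the 12 libraries. Cdh1, the adhesion protein E-cadherin, averaged 75.2 CPM per kb. Krt20 and Krt23, keratins of gut and duct epithelia, had 18 and 7 counts in all KO libraries together and 18 and 1 in all controls, and 6 of the 11 other keratins listed had 0 counts in every library. The 17 genes of duct secretion and transport were also mixed in level. Carriers of wider use were well counted, such as the sodium pump subunit Atp1b1 with 1216 counts in KO and 1287 in control islets and the anion exchanger Slc4a2 with 496 and 475. Car4, a carbonic anhydrase, had 179 counts in KO and 211 in control islets, while Car2, of the same family, had 6 and 2. Sctr, the secretin receptor, had 3 and 1. Of the 17 genes, 8 had a mean under 1 CPM, among them 2 with 0 in every library. In the list of duct transcription factors and cilium genes, 3 of 17 had a mean under 1 CPM. Among surface and secreted genes of ducts, 7 of 21 did.

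None of the 9 genes was called different between KO and control islets. Of the 6 that passed the expression filter (Krt7, Spp1, Cldn3, Cldn4, Cldn7 and Tff2), 0 passed an adjusted p of 0.05 in the quasi-likelihood test of edgeR, and 0 did so in DESeq2 or in limma's voom with quality weights. Over all 9664 genes tested, 12 were called, which is 0.124%. At an unadjusted p of 0.05, 4 of the 6 passed, against 7.91% of all genes tested. Their median log2 fold change was -0.07, against 0.00 for all genes tested, with 3 genes above 0 and 3 below. The KO and control ranges overlapped for all 6, while 0.579% of the genes tested had ranges that did not overlap.

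**Figure D2:**
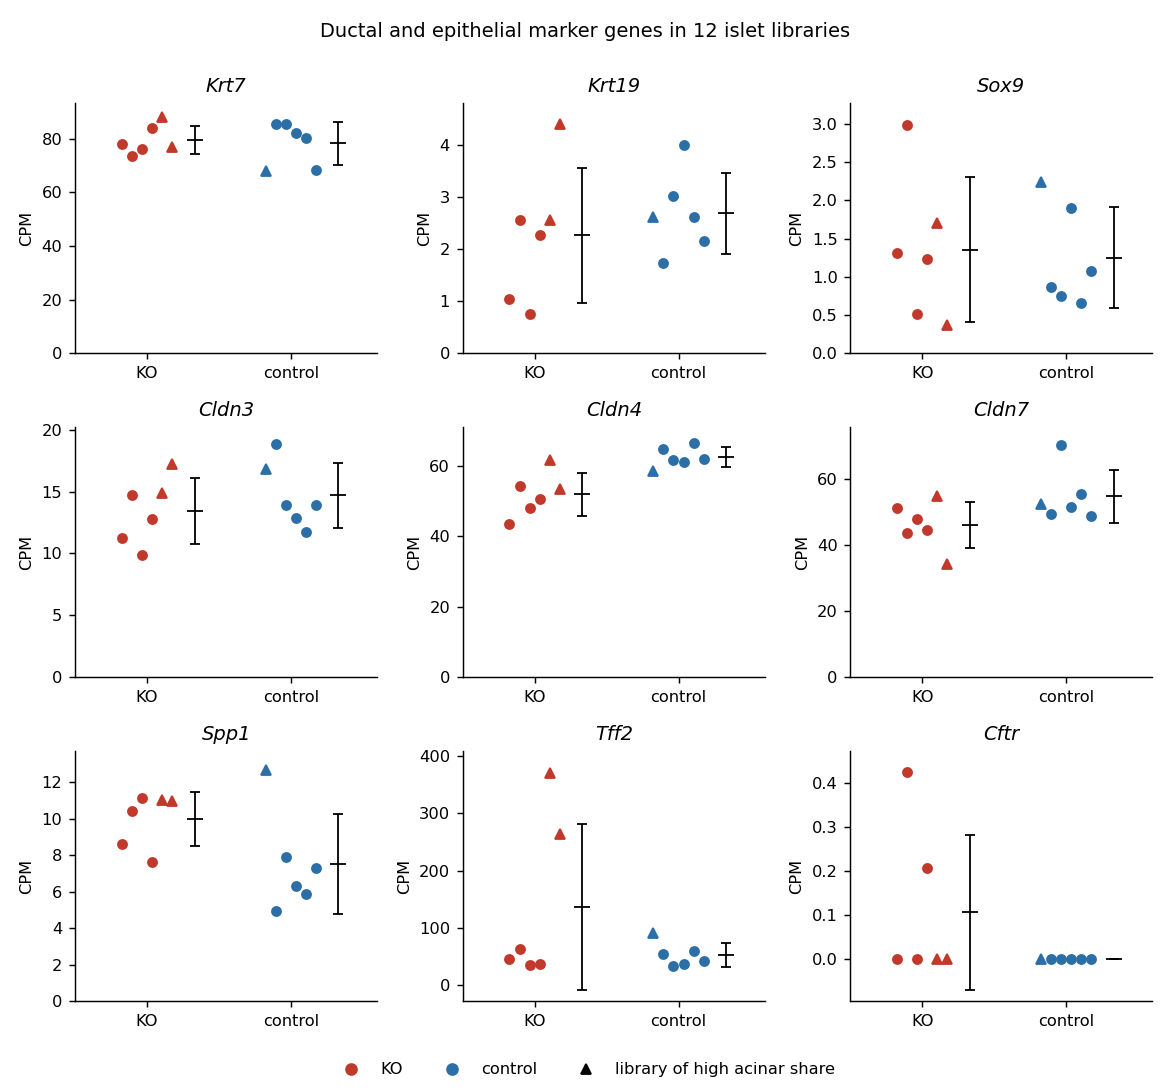
CPM of each of the 9 genes by library, with KO on the left and control on the right. Each point is a library, triangles are the 3 libraries of high acinar share, and the black bar is the mean with its SD (n = 6 each). Cldn4 lies mostly lower in KO, and Tff2 is set apart in 2 KO libraries.

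The claudins, which set the permeability of tight junctions, had lower means in KO islets, by amounts that did not pass the test. Cldn4 was at 43.5 CPM in the lowest, 52.1 in the median and 61.6 in the highest KO library, and at 58.6, 61.9 and 66.6 CPM in the control libraries. All 6 KO libraries lay below the control mean and 5 of 6 below the lowest control, and KO replicate 5 was the exception. KO libraries averaged 52.0 ± 6.14 CPM and controls 62.5 ± 2.85 CPM (SD, n = 6 each). The log2 fold change of Cldn4 was -0.28 ± 0.08 (SE; unadjusted p = 0.00149, adjusted p = 0.232, edgeR).

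In the 9 libraries of lower acinar share the Cldn4 groups separated, with 43.5 to 54.4 CPM in 4 KO libraries and 61.1 to 66.6 CPM in 5 controls. The log2 fold change of Cldn4 was then -0.36 ± 0.09 (SE; adjusted p = 0.0533, edgeR), still short of the threshold. In that comparison 0 of 7 tested members passed, against 0.296% of all genes tested, and Cldn4 was the 1 member whose ranges did not overlap, against 2.68% of genes. Genotype and title number cannot be told apart there, since all 4 KO numbers are below 706 and all 5 control numbers are from 805. Summed endothelial markers separated too, at 203 to 214 CPM in the 4 KO libraries and 222 to 239 CPM in the 5 controls. The single endothelial genes were mixed: the median log2 fold change of the 12 tested was -0.04, with Plvap at -0.33 and Emcn at 0.19. The part of endothelial RNA in the Cldn4 difference was not tested. With all libraries, the title numbers up to 706 held KO values of Cldn4 from 43.5 to 61.6 CPM and 1 control at 58.6 CPM. With a term for title numbers, which rests on that 1 control, the log2 fold change of Cldn4 was -0.18 ± 0.15 (SE; adjusted p = 0.948, edgeR).

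Cldn7 was at 34.4, 46.2 and 54.8 CPM in the lowest, median and highest KO library, and at 48.9, 52.1 and 70.4 CPM in the controls. Of the KO libraries 4 lay below every control, but KO replicates 1 and 5 lay inside the control range, and control replicate 3 stood above the other controls. Cldn7 differed by -0.24 ± 0.10 on the log2 scale (SE; unadjusted p = 0.0229, adjusted p = 0.554, edgeR). Cldn3 was at 9.89, 13.7 and 17.2 CPM in KO libraries and at 11.8, 13.9 and 18.8 CPM in controls. The groups overlapped, with 2 KO libraries below the lowest control and 0 above the highest. The log2 fold change of Cldn3 was -0.15 ± 0.15 (SE; adjusted p = 0.881, edgeR), and -0.23 ± 0.16 in the 9 libraries of lower acinar share (adjusted p = 0.776). Summed, the 3 claudins ranged from 105.1 to 131.3 CPM in KO and from 124.9 to 146.2 CPM in control libraries.

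The claudins showed no common pattern from library to library. Over the 12 libraries, with the group means removed, Pearson's r was 0.44 for Cldn3 and Cldn4, -0.02 for Cldn4 and Cldn7 and -0.43 for Cldn3 and Cldn7. With Tff2, which tracked the acinar genes, r was 0.65 for Cldn3, 0.66 for Cldn4 and -0.19 for Cldn7. In the 9 libraries of lower acinar share r was 0.43 for Cldn3 and Cldn4, -0.40 for Cldn4 and Cldn7 and -0.37 for Cldn3 and Cldn7, and with Tff2 it was 0.42 for Cldn3, 0.56 for Cldn4 and -0.42 for Cldn7. These values describe libraries that share their depth and scaling, and no p is attached. Cldn3 and Cldn4 are neighbours on chromosome 5, and their promoters are shown because both genes have E-box letters close to the start that repressors of the Snail and Zeb families are known to recognise in claudin genes. Sequences run from 250 bases before to 50 after the start (RefSeq, GRCm38.p6), with CAGGTG or its reverse complement CACCTG in capitals.
Cldn3, chr5:134985964-134986263, plus strand: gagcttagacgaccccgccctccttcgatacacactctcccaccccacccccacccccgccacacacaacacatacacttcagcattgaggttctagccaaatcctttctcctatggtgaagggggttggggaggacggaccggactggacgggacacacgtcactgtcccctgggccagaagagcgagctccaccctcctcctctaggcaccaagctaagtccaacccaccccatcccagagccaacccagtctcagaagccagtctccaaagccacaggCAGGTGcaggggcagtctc
Cldn4, chr5:134946885-134947184, minus strand: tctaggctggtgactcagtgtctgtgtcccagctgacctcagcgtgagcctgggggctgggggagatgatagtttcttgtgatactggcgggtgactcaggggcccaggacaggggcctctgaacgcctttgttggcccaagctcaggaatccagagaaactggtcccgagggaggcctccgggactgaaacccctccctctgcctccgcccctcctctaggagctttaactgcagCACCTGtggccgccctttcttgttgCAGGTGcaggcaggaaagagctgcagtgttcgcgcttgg

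Searched on both strands, Cldn3 held 1 match and Cldn4 held 2. Of 32851 promoters of the same 300 bases, 20.2% held at least 1 match and 2.88% at least 2. Promoters were found for 6 of the 9 genes, Cftr, Cldn3, Cldn4, Cldn7, Krt7 and Spp1. Of these, 5 held a match in at least 1 listed start, all but Cftr. Cldn7 held 2 matches in 1 start, as many as Cldn4, and Krt7 and Spp1 held 1 each, as many as Cldn3. The match thus does not set Cldn3 and Cldn4 apart. Cldn7 and Spp1 each had a further start with 0 matches. The shares above count single promoters, not genes, so they cannot be set against this count of genes.

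No other gene of the tight junction passed the test. Of 27 further claudins and junction genes in the table, 5 were at 0 throughout and 9 were tested. Of these, 0 passed, 3 lay above 0 and 6 below, and the median log2 fold change was -0.02. The gene with the smallest p was Esrp1, an epithelial splicing regulator, with a mean of 40.7 ± 8.14 CPM in KO libraries and 48.6 ± 2.96 CPM in controls (SD, n = 6 each). Esrp1 differed by -0.24 ± 0.10 on the log2 scale (SE; adjusted p = 0.585, edgeR), and by -0.12 without the libraries of high acinar share. Cldn12, a further claudin chosen after its values were seen, lay on the other side, with a log2 fold change of 0.24 ± 0.13 (adjusted p = 0.681).

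Krt7, a keratin of duct and other simple epithelia, was the steadiest of the 9 genes. It was at 73.8, 77.5 and 88.0 CPM in the lowest, median and highest KO library and at 67.9, 81.2 and 85.7 CPM in the controls, and 5 of 6 KO values lay inside the control range. The coefficient of variation of Krt7 over all 12 libraries was 8.34%, against 6.03% from counting error alone. KO and control differed by 0.02 ± 0.08 on the log2 scale (SE; adjusted p = 0.980, edgeR) and without the libraries of high acinar share it was -0.04 ± 0.08 (adjusted p = 0.952). Among the other keratins 2 of 11 were tested, and Krt18, the one with the smaller p, had a log2 difference of 0.04 ± 0.09 (adjusted p = 0.960), or -0.05 without those libraries.

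Krt19, Sox9 and Cftr did not pass the expression filter over the 12 libraries and are given as counts. Krt19, the keratin most often used to mark ducts, had 3 to 12 counts per KO library and 7 to 19 per control, 48 and 60 in all. In CPM, Krt19 averaged 2.26 ± 1.30 in KO libraries and 2.69 ± 0.783 in controls (SD, n = 6 each; exact permutation test, two-sided, p = 0.509). The ratio of KO to control for Krt19 was 0.801 (95% interval 0.537 to 1.19, exact binomial). In the 9 libraries of lower acinar share Krt19 passed the filter, with 1.66 ± 0.886 CPM in 4 KO libraries and 2.70 ± 0.874 CPM in 5 controls (SD), and a log2 difference of -0.63 ± 0.38 (SE; adjusted p = 0.716, edgeR). Sox9 had 32 counts in KO and 28 in control islets, from 1 to 14 per KO library and from 2 to 9 per control, a ratio of 1.14 (0.668 to 1.97; two-sided exact permutation p = 0.831 on CPM, n = 6 each).

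Cftr was counted 2 times in the second KO replicate, 1 time in the fourth and 0 times in the other 4 KO libraries, against 0 in all 6 controls. A count of 0 over the control libraries allows up to 0.134 CPM, and 3 counts in KO are at that limit, so no fold is given (two-sided exact permutation p = 0.455 on CPM, n = 6 each). The 3 libraries of high acinar share did not hold more of these genes than the others beyond their spread: Krt19, Sox9 and Cftr summed to 4.25 to 4.85 CPM in them, against 1.27 to 5.97 CPM in the other 9. In bulk RNA, fewer duct cells and less RNA per duct cell cannot be told apart.

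No gene of duct identity or secretion outside the 9 passed the test. In the list of duct transcription factors and cilium genes, 11 of 17 were tested, 0 passed, 5 lay above 0 and 6 below, with a median log2 fold change of -0.06. In the list of secretion and transport genes, 7 of 17 were tested, 0 passed, 1 lay above 0 and 6 below, with a median of -0.17. Clcn2, a chloride channel, averaged 3.79 ± 0.704 CPM in KO libraries and 5.50 ± 1.005 CPM in controls (SD, n = 6 each; log2 fold change -0.52 ± 0.21 SE; adjusted p = 0.539, edgeR).

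Of 21 surface and secreted genes of ducts, 12 were tested and 0 passed, with 6 above 0, 6 below and a median of 0.00. Anxa5, a phospholipid-binding annexin, had the smallest p of these, with a mean of 87.5 ± 3.49 CPM in KO libraries and 97.7 ± 9.11 CPM in controls (SD, n = 6 each; log2 fold change -0.15 ± 0.07 SE; adjusted p = 0.617, edgeR). In the 9 libraries of lower acinar share Anxa5 had a log2 fold change of -0.10.

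Spp1, a phosphoprotein secreted by duct cells and macrophages, had a higher mean in KO islets and carries the seed match shown above. It was at 8.65, 10.4, 11.2, 7.62, 11.05 and 10.99 CPM in KO replicates 1 to 6 and at 12.7, 4.98, 7.91, 6.32, 5.88 and 7.30 CPM in control replicates 1 to 6. All 6 KO libraries lay above the control mean, but control replicate 1 was the highest of all 12 libraries. KO libraries averaged 9.99 ± 1.49 CPM and controls 7.51 ± 2.74 CPM (SD, n = 6 each), and the log2 fold change of Spp1 was 0.44 ± 0.19 (SE; unadjusted p = 0.0324, adjusted p = 0.591, edgeR). Only 18 to 49 counts per library stand behind these values.

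The Spp1 values also differed by title number. The 7 libraries with numbers up to 706, among them control replicate 1, were at 7.62 to 12.7 CPM, and the 5 controls from 805 at 4.98 to 7.91 CPM. Within the numbers up to 706, the 6 KO libraries were at 7.62 to 11.2 CPM and the 1 control at 12.7 CPM, too few controls for a comparison. With a term for title numbers the log2 fold change of Spp1 was -0.36 ± 0.30 (SE; adjusted p = 0.948, edgeR), a value that rests on the same 1 control, itself a library of high acinar share. Without that control it was 0.62 ± 0.18 (SE; adjusted p = 0.224, edgeR). The sources used here do not say what the title numbers stand for. Summed leukocyte markers were at 108 to 307 CPM in KO and 102 to 130 CPM in control libraries, with KO replicate 6 alone above 130. Of 10 tested leukocyte genes 8 lay above 0 and 2 below, with a median log2 fold change of 0.33, or 0.14 without the libraries of high acinar share. Laptm5, a lysosomal protein of blood cells chosen after its values were seen, had 7.08 ± 2.40 CPM in KO and 4.84 ± 0.957 CPM in control libraries (SD, n = 6 each; log2 fold change 0.49 ± 0.22 SE; adjusted p = 0.591, edgeR). C1qa, of the same list and also chosen after its values were seen, lay on the other side. It had 39.2 ± 3.90 CPM in KO and 45.6 ± 6.89 CPM in control libraries (SD, n = 6 each). The log2 fold change of C1qa was -0.22 ± 0.09 (SE, adjusted p = 0.574, edgeR). The part of leukocyte RNA in the Spp1 difference was not tested.

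**Figure D3:**
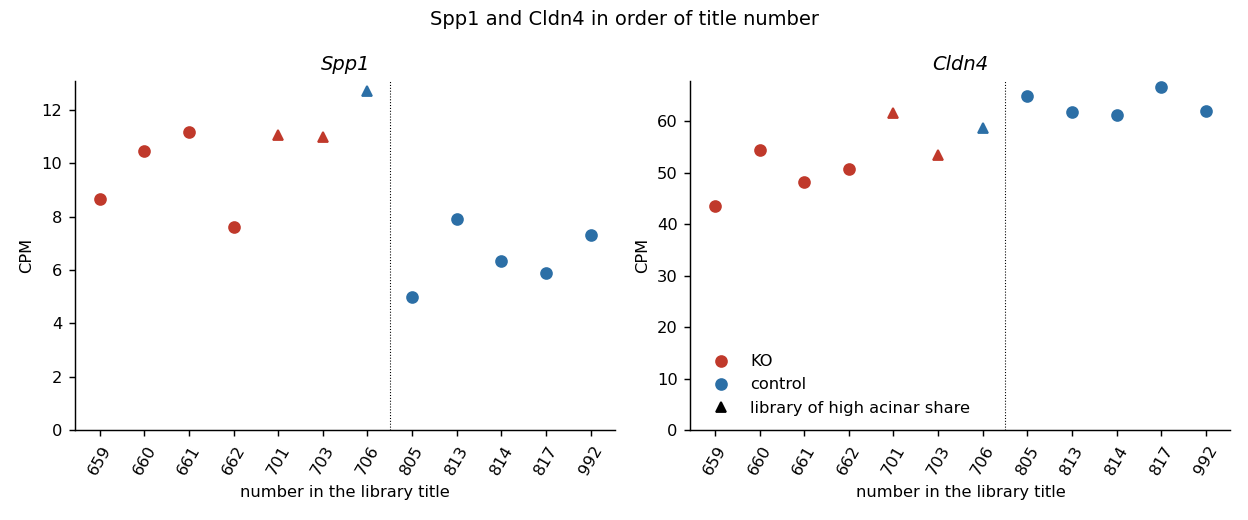
Spp1 (left) and Cldn4 (right) in CPM, with the libraries in order of the number in their title. Red is KO, blue is control, triangles are the libraries of high acinar share, and the dotted line divides numbers up to 706 from those from 805. The control numbered 706 is the highest of all for Spp1, at 12.7 CPM, and at 58.6 CPM the lowest control for Cldn4.

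Tff2, a trefoil peptide that protects mucosal surfaces and was first purified from pig pancreas, had the largest log2 fold change of the 6 tested genes, and 2 KO libraries carried it. The values were 44.8, 62.3, 35.3, 36.8, 371.0 and 263.7 CPM in KO replicates 1 to 6, and 90.7, 54.9, 33.2, 37.3, 59.4 and 41.6 CPM in control replicates 1 to 6. KO replicates 5 and 6 stood above all other libraries, control replicate 1 came next, and the other 9 libraries overlapped fully. KO libraries averaged 135.6 ± 145.1 CPM and controls 52.9 ± 21.1 CPM (SD, n = 6 each). For Tff2 the log2 fold change was 1.32 ± 0.45 (SE; unadjusted p = 0.00729, adjusted p = 0.395, edgeR). Without the 3 libraries of high acinar share, Tff2 averaged 44.8 ± 12.4 CPM in 4 KO libraries and 45.3 ± 11.4 CPM in 5 controls (SD), a log2 difference of -0.01 ± 0.13 (SE; adjusted p = 0.993, edgeR).

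Relative to the acinar markers, Tff2 varied far less than its level did. Per 1000 counts of the 33 acinar genes there were 2.71, 2.78, 2.52, 2.68, 2.42 and 2.21 counts of Tff2 in KO replicates 1 to 6, and 1.55, 2.65, 2.60, 2.99, 2.55 and 2.24 in control replicates 1 to 6. The ratio averaged 2.06 ± 0.454 in the 3 libraries of high acinar share and 2.64 ± 0.204 in the other 9 (SD), with the lowest value in control replicate 1. Acinar genes summed to 12471 to 23309 CPM in the other 9 libraries and to 58622 to 153558 CPM in the 3 of high acinar share. With the acinar covariate, the log2 fold change of Tff2 was 0.13 (adjusted p = 0.827, edgeR).

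**Figure D4:**
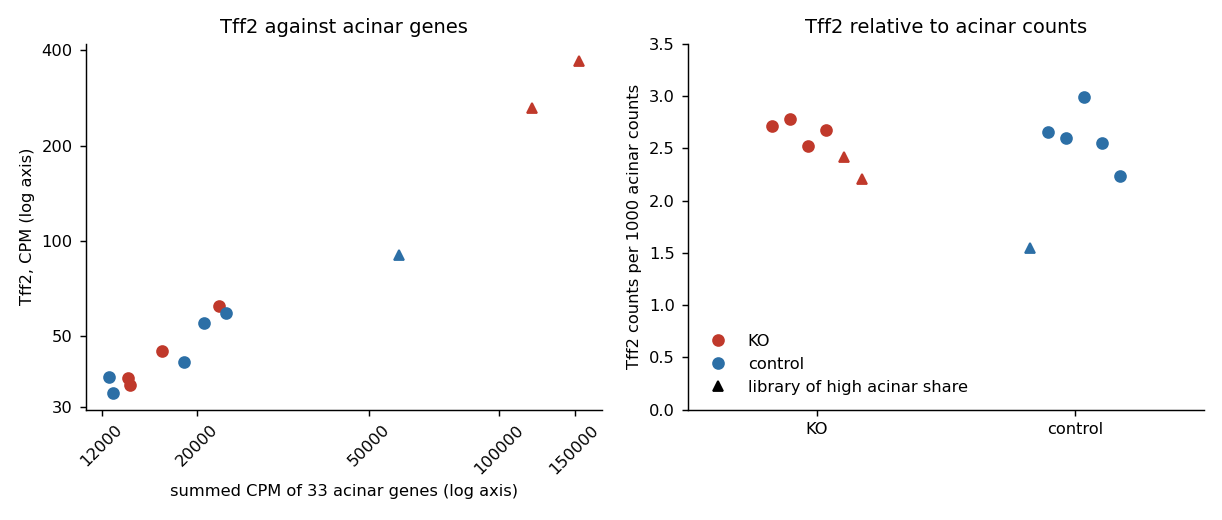
Left, Tff2 in CPM against the summed CPM of 33 acinar genes, both on log axes, 1 point per library. Right, Tff2 counts per 1000 acinar counts by library, KO on the left and control on the right, with triangles for the libraries of high acinar share. Tff2 climbs with the acinar sum across libraries, and the ratio stays between 1.55 and 2.99.

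The other trefoil factors and mucins gave little to compare. Of 13 in the table, Tff1 and 7 more were at 0 throughout, and Tff3, a trefoil peptide of goblet cells, had 49 counts in KO and 32 in control islets. Muc4, a membrane mucin, was the 1 tested gene, with a mean of 18.9 ± 4.95 CPM in KO libraries and 19.9 ± 4.22 CPM in controls (SD, n = 6 each; log2 fold change -0.08 ± 0.15 SE; adjusted p = 0.949, edgeR). In the 9 libraries of lower acinar share the value of Muc4 was -0.03.

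**Figure D5:**
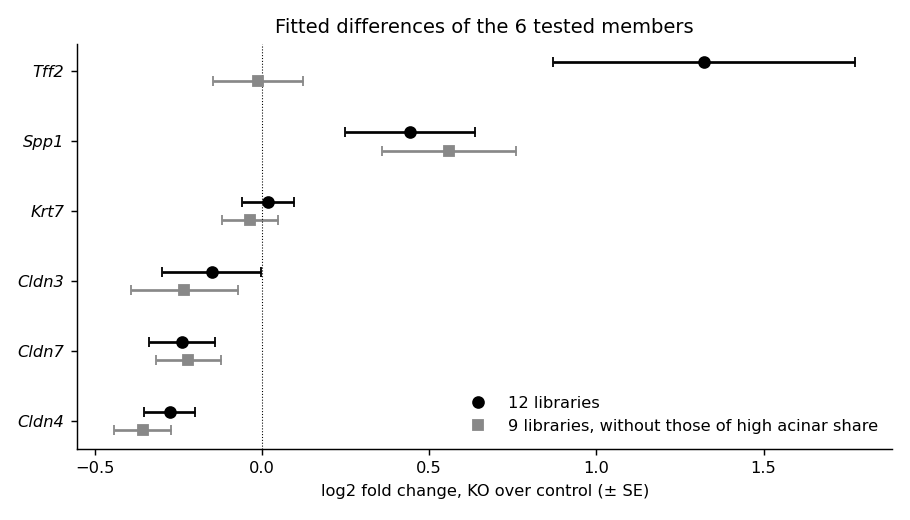
Log2 fold change of KO over control with its SE for the 6 tested genes, in all 12 libraries (black circles) and in the 9 libraries without those of high acinar share (grey squares). Tff2 moves from 1.32 to -0.01 between these fits, whereas Cldn4 is at -0.28 and -0.36.

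For each of the 6 tested genes, the 3 genes with the most similar pattern over the 12 libraries were taken from 4862 genes with at least 50 counts on average, after removal of the group means. The patterns nearest to Tff2 were those of the pancreatic enzyme and granule genes Gp2, Pnliprp1 and Pnlip, with r = 0.99 for each, and 0.94, 0.93 and 0.97 in the 9 libraries of lower acinar share. None of the other 5 genes had an acinar gene among its 3 nearest. Nearest to Cldn4 was Hdac6, a cytoplasmic deacetylase (r = 0.86, and 0.85 in the 9 libraries), to Cldn7 Oxnad1 (0.92 and 0.88), to Cldn3 Gm11127 (0.88 and 0.90; itself lower in KO, with a log2 fold change of -0.82 and an adjusted p of 0.0169, edgeR), and to Spp1 Chchd5 (0.93 and 0.90). The libraries share their depth and scaling, and these values are descriptions only.

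Markers of the other cell types bear on the same libraries. Of 27 tested acinar genes 0 passed, all 27 lay above 0, and the median log2 fold change was 1.18, or -0.06 without the 3 libraries of high acinar share. Among endothelial genes 12 of 13 were tested and 0 passed, with a median of -0.07, and their summed level was 175 to 222 CPM in KO and 219 to 239 CPM in control libraries. Plvap, of endothelial fenestrae, had the smallest p of that list (log2 fold change -0.36 ± 0.10 SE, adjusted p = 0.177, edgeR). Stellate and mesenchymal genes summed to 52.4 to 63.4 CPM in KO and 50.01 to 70.3 CPM in control libraries. Of 2 tested mesenchymal genes 0 passed, and Des, a muscle filament, had the smaller p (log2 fold change -0.30 ± 0.26 SE, adjusted p = 0.849; -0.20 without the libraries of high acinar share). Cd52, a surface peptide of lymphocytes, had the smallest p of the 10 leukocyte genes, of which 0 passed (log2 fold change 1.86 ± 0.62 SE, adjusted p = 0.376). Its highest value was 74.0 CPM in KO and 6.03 CPM in control libraries, and without the libraries of high acinar share its log2 fold change was 0.24. Gp2 had the smallest p of the acinar genes (1.55 ± 0.52 SE, adjusted p = 0.381), and -0.03 without those libraries.

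The authors' deposited table, made with DESeq2, gives log2 fold changes of KO over control of 1.35 for Tff2, 0.44 for Spp1, 0.02 for Krt7, -0.15 for Cldn3, -0.24 for Cldn7 and -0.28 for Cldn4. The unadjusted p-values in the authors' deposited table were 0.0325 for Tff2, 0.0409 for Spp1, 0.0285 for Cldn7 and 0.00111 for Cldn4, and those of the other 5 genes were above 0.05. In the authors' deposited table, 4 of the 9 genes thus had a p under 0.05, and so did 4.72% of all genes with a p-value.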

How the data were processed

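Islets were isolated and RNA was extracted with Trizol and the miRNeasy Mini Kit, per the labels' protocols. Per the submitters' processing notes, the tools were TopHat2, HTSeq and DESeq2 1.4.5 and the build was mm9; the notes used here assign them no roles, and stranding is not stated. The deposited table holds raw read counts per gene for 12 libraries, per the file headers; 27 of its 23366 rows, whose gene name had become a date, were left out. The same file holds the authors' log2 fold changes and p-values, headed as DESeq2 output, and normalized values that were not used.

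Counts were tested with edgeR 4.0.16 (R 4.3.3): TMM scaling, filterByExpr with a minimum count of 10 and a total of 15, the quasi-likelihood test, 6 KO against 6 control libraries with no covariate, and Benjamini-Hochberg adjustment over all genes tested with a threshold of 0.05. The SE is the log2 fold change divided by the root of F. The test was checked on simulated counts. Genes below the filter were compared by an exact permutation test of CPM. Lengths and 3′ UTRs are from GENCODE M21 (GRCm38), which differs from mm9, and were matched by gene name. Over 66 pairs, no library was a copy of another (lowest chi-square per gene 1.97).

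The genes and lists were chosen with earlier results of these data known. Named were the 9 genes, of every other list the genes that passed or the one with the smallest p, and the nearest patterns, of which some results are not reported here; levels of single duct and epithelial genes were added after their values were seen. The endocrine list was led by Sst (adjusted p = 0.300, edgeR), with 0 of 15 genes past the threshold. Alternatives were DESeq2 1.42.0, voom of limma 3.58.1, other scaling, filters, threshold and covariates, a replicate block, and libraries left out. Figures were drawn with matplotlib 3.10.9.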

Additional observations from a re-analysis of the deposited data

Results flagged for a closer look

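Dixon's test for a single sample far from the others was applied to 28 groups of 6 libraries, where chance flags about 1 in 20 groups. Cldn7 was at 70.4 CPM in control replicate 3, against 48.9 to 55.5 CPM in the other controls. The summed level of the 8 genes other than Tff2 was 234.6 CPM in KO replicate 5, against 194.8 to 203.2 CPM in the other KO libraries, and the summed claudins were 131.3 CPM in the same library, against 105.1 to 112.8 CPM. The acinar share of control replicate 1 was 5.56% of the counts, against 1.16% to 2.59% in the other controls. KO replicate 5 is also the library with the highest acinar share, and the part of that share in its claudin level was not tested.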

How the results depend on the processing

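In all alternatives run, 0 of the 9 genes passed the threshold, and the adjusted p of Cldn4, which came closest, ran from 0.0533 to 0.948. Cldn3, Cldn4 and Cldn7 kept a log2 fold change below 0 throughout. The direction turned for Spp1 with a term for title numbers (-0.36), and for Krt7 (-0.0367) and Tff2 (-0.0111) without the 3 libraries of high acinar share. With single libraries left out, Krt7 ran from -0.0198 to 0.0475 and Tff2 from 0.70 (without KO replicate 5) to 1.53; Tff2 was 0.51 with voom and quality weights, 0.53 with the term for title numbers and 0.82 with the replicate block. The count over all genes, 12, was 22 with no low-count filter, 26 with DESeq2, 26 at an adjusted p of 0.10, 33 with the acinar covariate, 30 without the 3 libraries, 0 with the term for title numbers, and 5 to 17 with single libraries left out. Of the other listed genes, 0 passed, but 1 did with DESeq2 (Sst) and 2 with the acinar covariate (Sst and Ctrc). With a replicate block, 15 genes and 0 of the 9 were called. Replicate numbers did not pair the libraries: the correlation of same-numbered deviations ran from -0.11 to 0.05. Causes of these shifts were not tested. Depth limits Krt19, Sox9 and Cftr, for which 3 counts in a library amount to 0.618 to 1.27 CPM.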
